A study of Homo sapiens with 6 samples.

Results

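ATF4 and 9 of its best known target genes were followed through 6 mRNA libraries from the bladder cancer lines UM-UC-3 and 5637. The 10 genes (ATF4, ATF3, DDIT3, TRIB3, ASNS, CHAC1, SESN2, DDIT4, PSAT1 and SLC7A11) were chosen by symbol, and each matched 1 of the 50867 rows with values in the expression table. The study silenced LNMAT1, a long noncoding RNA, and asked which genes respond. Each line was infected with lentivirus and selected with puromycin into stable cells carrying a control hairpin (sh-NC) or 1 of 2 LNMAT1 hairpins, called sh-LNMAT1#1 and sh-LNMAT1#2, so that the 6 groups hold 1 library each and all cells carry an integrated virus. UM-UC-3 was grown in DMEM and 5637 in RPMI 1640, so line and medium cannot be told apart.

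The integrated stress response is the route by which cells answer a lack of amino acids, unfolded protein in the endoplasmic reticulum (ER), lack of heme or viral RNA. Kinases for each signal phosphorylate the translation factor eIF2, most protein synthesis slows, and the mRNA of ATF4 is translated more efficiently because of short reading frames ahead of its coding sequence. The ATF4 protein then switches on genes for amino acid uptake and synthesis, redox balance and feedback, which makes the mRNA levels of the targets a common readout of the response, whereas the mRNA level of ATF4 itself reads its protein only in part.

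Levels are given in FPKM, fragment counts scaled to transcript length and to library size. The depth behind them, worked out from the steps between low values, was 19375000 to 24707000 fragments per library. LINC01296, which RefSeq lists with LNMAT1 as a synonym of DUXAP9, stood in UM-UC-3 at 14.2 FPKM with the control hairpin and at 6.20 and 6.70 FPKM with the LNMAT1 hairpins. RefSeq also gives the name LNMAT1 to DUXAP10. The library labelled 5637 sh-NC held 11.7 FPKM of it, and the 2 5637 sh-LNMAT1 libraries 4.70 and 2.14 FPKM. That control library stood apart from its label. Across genes its log2 values correlated with UM-UC-3 sh-LNMAT1#1 at r = 0.985 and with the 5637 sh-LNMAT1 libraries at 0.617 and 0.622. Of 6 epithelial markers, 0 reached 1 FPKM in it or in the UM-UC-3 libraries (summed level 0.178 to 0.271 FPKM), whereas 6 of 6 did so in both 5637 sh-LNMAT1 libraries (475 and 643 FPKM). Of 5 mesenchymal markers, 4 or 5 reached 1 FPKM in every library, with sums from 121 to 364 FPKM, but single markers went opposite ways. VIM was listed at 103 to 332 FPKM and ZEB1 at 8.67 to 12.7 FPKM in the UM-UC-3 libraries and the library labelled 5637 sh-NC, against 3.85 and 4.14 FPKM and 0.0264 and 0.00774 FPKM in the 5637 sh-LNMAT1 libraries. FN1 was listed at 0.816 to 2.27 FPKM in the former and at 109.6 and 102 FPKM in the latter. The lines were therefore compared without the library labelled 5637 sh-NC, and each comparison that uses it is named.

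The promoters of these genes can carry the C/EBP-ATF response element, the composite site at which ATF4 pairs with a C/EBP protein. The letters TGATGNAA were searched on both strands of the RefSeq promoters (GRCh38.p14), from 250 bases before to 50 bases after each start. Of the 9 members with a promoter entry, 3 held a match, compared with 4.46% of 27305 genes. SLC7A11 has no entry. The 3 windows below are shown because they place the element in the promoters of genes whose levels are described here, and those of CEBPG, AARS1 and GOT1 because the levels of these genes ran most like the members'. Each is 30 bases long, 5′ to 3′ on the strand of the gene, with the match in capitals. The element of ATF3 (chr1:212565205-212565234, plus strand) starts 191 bases before the RefSeq start, outside the gene as annotated in GENCODE 29. That of ASNS (chr7:97872458-97872487, minus strand) starts 68 bases before the RefSeq start, in the annotated 5′ UTR of longer GENCODE 29 transcripts. That of CHAC1 (chr15:40953251-40953280, plus strand) lies on the opposite strand, also in an annotated 5′ UTR, 209 bases before the RefSeq start.
ATF3: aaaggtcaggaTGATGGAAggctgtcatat
ASNS: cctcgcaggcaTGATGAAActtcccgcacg
CHAC1: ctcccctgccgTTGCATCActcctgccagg
CEBPG: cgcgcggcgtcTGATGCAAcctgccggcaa
AARS1: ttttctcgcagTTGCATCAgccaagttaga
GOT1: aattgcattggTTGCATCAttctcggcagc
The windows of CEBPG (chr19:33374060-33374089, plus strand, in an intron of a longer transcript), AARS1 (chr16:70289675-70289704, minus strand, outside the gene) and GOT1 (chr10:99430804-99430833, minus strand, in an annotated UTR) hold the full letters TGATGCAA on one strand or the other. CHAC1 holds the same 8 letters, whereas ATF3 and ASNS differ from them at the variable base.

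The 8 targets ATF3, DDIT3, TRIB3, ASNS, CHAC1, SESN2, PSAT1 and SLC7A11 were lower in the 2 5637 sh-LNMAT1 libraries than in the 3 UM-UC-3 libraries, by 1.98-fold to 10.98-fold, while the mRNA of ATF4 itself and that of DDIT4 did not pass the test. Lower calls of limma at an adjusted p below 0.05 stood at 8 of 10 members and higher calls at 0, against 21.6% and 21.3% of the 12747 genes tested. The members' median log2 difference was −2.24 and that of the genes tested −0.04. With the library labelled 5637 sh-NC placed in its labelled line, 0 of the 8 calls remained. That fit called 2 of 12716 genes in all, so the loss was not particular to the members. All differences below are log2(FPKM + 0.5), 5637 minus UM-UC-3, with the standard error (SE) and the adjusted p of limma over 5 libraries.

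ATF4 (chromosome 22, 39519695 to 39522685), the transcription factor at the center of the response, was among the most abundant members in every library. Its level was 126, 141 and 109 FPKM in UM-UC-3 (control, then hairpin #1, then hairpin #2), and 109 and 89.9 FPKM in 5637 (hairpin #1, then #2). The library labelled 5637 sh-NC held 144 FPKM. The lowest UM-UC-3 library and the higher 5637 sh-LNMAT1 library were nearly equal, so that the lines met without a gap. The difference was −0.33 (SE 0.19, 95% interval −0.79 to 0.13, adjusted p = 0.205). ATF4P3, a pseudogene of ATF4 listed at 8.13 to 12.4 FPKM, may share reads with it.

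ATF3 and DDIT3 encode bZIP transcription factors that act downstream of ATF4. ATF3 (chromosome 1, 212565334 to 212620777) was low in all libraries, at 4.19, 6.74 and 5.50 FPKM in UM-UC-3 and at 1.00 and 1.02 FPKM in 5637, in the same order. The lines did not overlap, and the library labelled 5637 sh-NC, at 6.31 FPKM, lay inside the UM-UC-3 range. The difference was −1.96 (SE 0.23, adjusted p = 0.00105). Behind these 2 5637 values stood 10.03 to 84.0 and 9.53 to 79.9 fragments, depending on the transcript, with 95% counting intervals of at most 0.48 to 1.84 and 0.479 to 1.90 FPKM.

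DDIT3 (chromosome 12, 57516588 to 57520517), which encodes the pro-apoptotic factor CHOP, showed the widest gap of the set. In UM-UC-3 it was listed at 14.8, 33.6 and 16.3 FPKM, and in the 5637 sh-LNMAT1 libraries at 1.49 and 1.27 FPKM. The library labelled 5637 sh-NC, at 32.6 FPKM, stood next to UM-UC-3 sh-LNMAT1#1 at the top. The difference was −3.46 (SE 0.36, adjusted p = 0.000605), a 10.98-fold lower level. MARS1 overlaps DDIT3 on the opposite strand, and as the strand setting of the counting is not given in the sources used here, reads of the overlap cannot be assigned with certainty.

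TRIB3 and CHAC1 are targets that feed back on the response or on cell survival. TRIB3 (chromosome 20, 362835 to 397559), a pseudokinase that restrains ATF4 and AKT, was at 50.7, 114 and 86.5 FPKM in UM-UC-3, 17.5 and 9.75 FPKM in the 5637 sh-LNMAT1 libraries and 83.0 FPKM in the library labelled 5637 sh-NC. The lines were well apart, and both LNMAT1 hairpins in UM-UC-3 sat above the control. The difference was −2.56 (SE 0.40, adjusted p = 0.00327), and it lost its call without 5637 sh-LNMAT1#2, at −2.15.

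CHAC1 (chromosome 15, 40952962 to 40956519), which degrades glutathione, was at 4.38, 5.00 and 6.82 FPKM in UM-UC-3, 2.82 and 2.11 FPKM in the 5637 sh-LNMAT1 libraries and 8.75 FPKM in the library labelled 5637 sh-NC. It had the narrowest gap of the called genes. The difference was −0.98 (SE 0.24, adjusted p = 0.0198). It lost its call without 5637 sh-LNMAT1#1 (−1.16) or without 5637 sh-LNMAT1#2 (−0.81).

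ASNS, PSAT1 and SLC7A11 supply amino acids. ASNS (chromosome 7, 97852118 to 97872542), asparagine synthetase, was at 41.8, 93.5 and 52.9 FPKM in UM-UC-3 and at 8.15 and 5.27 FPKM in the 5637 sh-LNMAT1 libraries. UM-UC-3 sh-LNMAT1#1 and the library labelled 5637 sh-NC (84.4 FPKM) formed the top, the other UM-UC-3 libraries the middle and the 5637 sh-LNMAT1 libraries the bottom. The difference was −3.08 (SE 0.37, adjusted p = 0.00115), an 8.44-fold lower level. ASNSP1, an ASNS pseudogene that may share reads, was listed at 0 FPKM in both 5637 sh-LNMAT1 libraries and at 1.501 to 2.434 FPKM in the other libraries.

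PSAT1 (chromosome 9, 78297143 to 78330093), an enzyme of serine synthesis, was the most abundant member in UM-UC-3, at 131, 204 and 143 FPKM. It was listed at 29.9 and 24.0 FPKM in the 5637 sh-LNMAT1 libraries and at 161 FPKM in the library labelled 5637 sh-NC. The lines did not overlap. The difference was −2.52 (SE 0.24, adjusted p = 0.000396).

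SLC7A11 (chromosome 4, 138164097 to 138242349), the cystine importer xCT, is also a target of the oxidative stress factor NRF2. Its level was 19.1, 14.2 and 20.1 FPKM in UM-UC-3, 5.94 and 6.36 FPKM in the 5637 sh-LNMAT1 libraries and 14.3 FPKM in the library labelled 5637 sh-NC. Unlike the genes above, it was lowest of the UM-UC-3 libraries with sh-LNMAT1#1. The difference was −1.45 (SE 0.21, adjusted p = 0.00257).

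SESN2 and DDIT4 both restrain mTORC1, the growth kinase complex, but their levels ran apart. SESN2 (chromosome 1, 28259527 to 28282491) was steady within each line, at 98.8, 123 and 104 FPKM in UM-UC-3 and 13.5 and 10.6 FPKM in the 5637 sh-LNMAT1 libraries, with 104 FPKM in the library labelled 5637 sh-NC. The difference was −3.12 (SE 0.20, adjusted p = 5.96e-05), the smallest p of the set, and an 8.71-fold lower level.

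DDIT4 (chromosome 10, 72273920 to 72276036), also induced by hypoxia and glucocorticoids, was at 42.1, 174 and 51.3 FPKM in UM-UC-3, 97.7 and 135 FPKM in the 5637 sh-LNMAT1 libraries and 116 FPKM in the library labelled 5637 sh-NC. The 5637 values fell within the UM-UC-3 range, which 1 library, UM-UC-3 sh-LNMAT1#1, stretched upward. The difference was 0.67 (SE 0.60, 95% interval −0.77 to 2.10, adjusted p = 0.404). Without UM-UC-3 sh-LNMAT1#1 it was 1.30 and DDIT4 was called higher in 5637.

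The replicates behind these tests are libraries that carry different hairpins, so the p-values measure the spread between such libraries and not between separate cultures of one construct. The 6 epithelial markers, VIM, ZEB1 and FN1 separate the same libraries, and their part in the result was not tested. In bulk RNA, fewer cells expressing a gene and less RNA per cell cannot be told apart.

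In UM-UC-3 the 10 genes stood within 2-fold of the control with sh-LNMAT1#2, and 4 of them stood at least 2-fold above it with sh-LNMAT1#1. Each hairpin has 1 library, so there is no replicate check and no test, and the values describe these libraries. Past 2-fold with each of the hairpins, in 1 direction, stood 0 of 10 members, against 1.44% of 12024 genes. With sh-LNMAT1#1 alone, 4 of 10 were at least 2-fold higher, against 5.55% of genes. With sh-LNMAT1#2, 0 of 10 were at least 2-fold higher or lower, against 3.51%.

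The 4 genes past 2-fold with sh-LNMAT1#1 were DDIT4 (log2 change 2.04), TRIB3 (1.16), DDIT3 (1.15) and ASNS (1.15). With sh-LNMAT1#2 the same genes changed by 0.28, 0.76, 0.13 and 0.34. The library labelled 5637 sh-NC, a control by label, also exceeded the UM-UC-3 control in all 4, at 116, 83.0, 32.6 and 84.4 FPKM. UM-UC-3 sh-LNMAT1#1 correlated with that library at r = 0.985, and with the UM-UC-3 control and sh-LNMAT1#2 libraries at 0.923 and 0.933. The latter 2 correlated with each other at 0.969. Whether these rises come from the hairpin was not tested. The DDIT4 change is carried by the 174 FPKM of 1 library, and the hairpins differed most in it. TRIB3 was the member nearest to 2-fold with sh-LNMAT1#2 and the only one to pass 1.5-fold with both hairpins. Passing 1.5-fold was not counted over all genes. ATF3 (0.63 and 0.36), PSAT1 (0.63 and 0.12), CHAC1 (0.17 and 0.58) and SESN2 (0.32 and 0.07) were also above the control with both. ATF4 went both ways (0.16 and −0.20), as did SLC7A11 (−0.42 and 0.07). At any size, 8 of 10 members were higher with both hairpins, compared with 33.0% of genes. Both changes share the 1 UM-UC-3 sh-NC library, so they are not independent. The median was 0.63 with sh-LNMAT1#1 and 0.21 with sh-LNMAT1#2, against −0.004 and 0.017 over all genes.

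**Figure D1:**
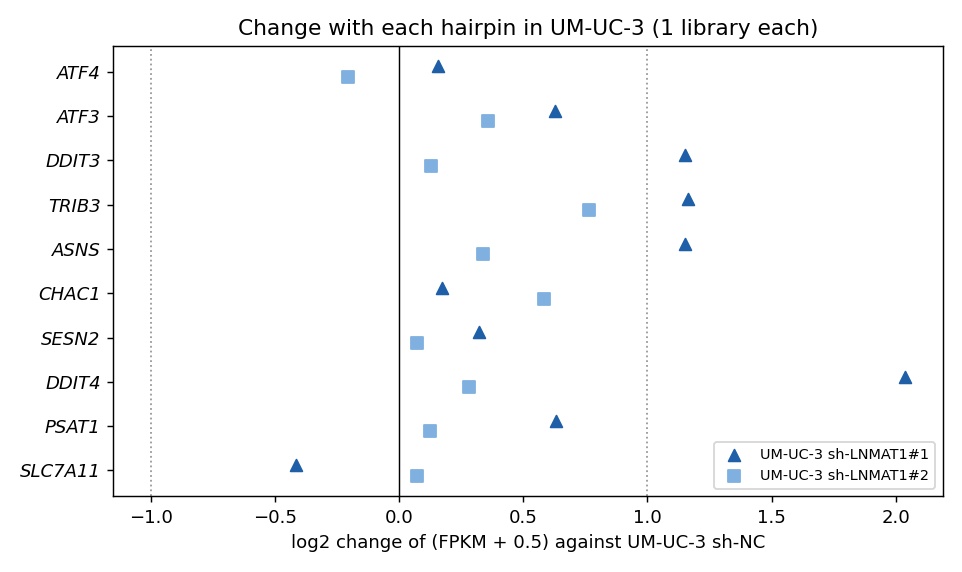
Log2 change of (FPKM + 0.5) against UM-UC-3 sh-NC with sh-LNMAT1#1 (triangles) and sh-LNMAT1#2 (squares), 1 library each, with dotted lines at 2-fold. DDIT4, TRIB3, DDIT3 and ASNS lie past 2-fold with sh-LNMAT1#1, and no gene does so with sh-LNMAT1#2.

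Against the library labelled 5637 sh-NC, 8 of 10 members fell below it by 2-fold or more in both 5637 sh-LNMAT1 libraries, against 12.3% of 12790 genes. DDIT3 changed by −4.06 and −4.23, ASNS by −3.29 and −3.88, SESN2 by −2.90 and −3.24, PSAT1 by −2.41 and −2.72, TRIB3 by −2.21 and −3.03, ATF3 by −2.18 and −2.16, CHAC1 by −1.48 and −1.83 and SLC7A11 by −1.20 and −1.11. ATF4 changed by −0.40 and −0.67 and DDIT4 by −0.25 and 0.22. These changes share the control library that carried no epithelial marker above 1 FPKM, so that a knockdown effect and the identity of that library cannot be told apart.

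The 2 5637 sh-LNMAT1 libraries were close to each other. Between them 0 of 10 members differed by 2-fold, against 2.17% of 12471 genes. With sh-LNMAT1#2, 7 of 10 members were lower than with sh-LNMAT1#1, a direction that was not counted over all genes. TRIB3 (log2 difference −0.81) and ASNS (−0.58) led them, and DDIT4 was higher (0.46). The median was −0.29, against −0.02 over all genes.

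Over both lines, with the line as a covariate, silencing of LNMAT1 called 0 of 10 members and 0% of 12716 genes by limma at an adjusted p below 0.05. At an unadjusted p below 0.05 stood 811 genes and 0 members, whose adjusted p lay between 0.569 and 0.683. Without UM-UC-3 sh-NC 8 members were called lower, against 14.9% of 12821 genes, in a fit whose 1 control is the library labelled 5637 sh-NC. Without the library labelled 5637 sh-NC the pooled log2 changes of 7 members turned from below 0 to above it, that of DDIT3 from −1.75 to 0.64. How many of all genes turned was not counted, and the 1 control left in that fit is UM-UC-3 sh-NC. Taken by label, the change differed between the lines for 7 of 10 members, all lower in 5637, against 8.79% of genes, in a fit added after the levels were seen.

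Beside the 10 members 9 lists of genes were taken, and their differences between the lines are set beside the share of all genes called (21.6% lower and 21.3% higher). Among 13 genes, the aminoacyl-tRNA synthetases and the tRNA exporter XPOT, 10 were lower and 0 higher in the 5637 sh-LNMAT1 libraries, with a median of −1.06. AARS1 (−2.18), LARS1 (−2.04) and MARS1 (−1.59), which charge tRNAs with alanine, leucine and methionine, had the largest differences, and AARS1 was listed at 101, 146 and 130 FPKM in UM-UC-3 against 29.9 and 24.3 FPKM. Of 11 genes of that list with a promoter entry, 7 held TGATGNAA, against 4.46% of all genes. In the other lists the count was 5 of 10 transporters, 2 of 6 bZIP partners, 1 of 4 phosphatase genes, 2 of 9 enzymes, 1 of 9 other outputs, 1 of 16 ER genes, 0 of 13 genes of the eIF2 list and 0 of 9 NRF2 targets.

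Enzymes of amino acid and one-carbon metabolism were mixed, with 4 lower, 1 higher and 8 not called of 13 tested. GOT1 (−2.05) makes aspartate, MTHFD2 (−1.77) works in mitochondrial folate metabolism and PYCR1 (−1.37) makes proline. Of 10 amino acid transporters tested, 1 was lower and 1 higher. SLC38A2 (−1.87), a carrier of small neutral amino acids, was lower, and SLC7A5 (1.83), the leucine carrier, was higher. The transporters' median was 0.26.

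Among 8 bZIP partners of ATF4, 5 were lower and 1 higher. CEBPG (−2.10) forms heterodimers with ATF4, and FOSL1 (−1.69) is a member of AP-1. CEBPD (4.78), an inflammatory C/EBP factor, went the other way, from 0.701 to 1.88 FPKM in UM-UC-3 to 42.7 and 45.6 FPKM in 5637 sh-LNMAT1 cells. Upstream, the list of eIF2 kinases, eIF2 and its exchange factor eIF2B had 3 lower and 3 higher of 15. EIF2AK1 (1.59), the heme-regulated kinase, was higher, while DELE1 (−1.45), which relays mitochondrial stress to it, and EIF2B3 (−1.11), a subunit of eIF2B, were lower. Of 5 genes of the eIF2α phosphatase, PPP1R15A (−1.35), the stress-induced subunit GADD34, was lower and 4 were not called.

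Other outputs of the response gave 3 lower and 3 higher of 11 tested, with VLDLR (−2.73), a lipoprotein receptor, SQSTM1 (−2.17), an autophagy receptor, and EIF4EBP1 (−1.53), a brake on translation, as the largest. The 3 higher were GDF15 (1.34), ADM2 (1.03) and STC2 (0.75). The chaperones and the XBP1 and ATF6 arm of the ER stress response, a different branch of unfolded protein signaling, had 2 lower and 1 higher of 16, and a median of −0.09. DNAJB9 (−1.52) and HERPUD1 (−1.46) were lower, and PDIA4 (0.57) was higher. HERPUD1 was the 1 gene of the 16 with a TGATGNAA match. Its Pearson r with the members' mean profile over the 6 libraries was 0.991. In 5 of these 16 the same promoter window held the ER stress response element (CCAAT and CCACG, 9 bases apart), which 0 of 9 members and 0.0916% of genes did.

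Targets of NRF2, taken because SLC7A11 belongs to them, had 9 lower and 1 higher of 11, with a median of −1.40. HMOX1 (−3.22), heme oxygenase, TXNRD1 (−2.56), thioredoxin reductase, and GCLM (−2.38), of glutathione synthesis, were lower, and PIR (1.86) was higher. In UM-UC-3, 0 genes of the 9 lists were past 2-fold, 1 way, with each hairpin, against 1.44% of genes.

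The list genes whose levels ran most like the members' mean profile over the 6 libraries were CEBPG (Pearson r = 0.998), AARS1 (0.994) and GOT1 (0.991). CEBPG was listed at 61.9, 93.3 and 75.9 FPKM in UM-UC-3, at 18.5 and 16.2 FPKM in the 5637 sh-LNMAT1 libraries and at 91.1 FPKM in the library labelled 5637 sh-NC. GOT1 had 51.9, 71.0 and 46.1 FPKM in UM-UC-3, 13.9 and 12.2 FPKM in the 5637 sh-LNMAT1 libraries and 73.3 FPKM in the library labelled 5637 sh-NC. These coefficients describe 6 libraries that fall into 2 sets, and a gene that differs between the sets is close to the members by that alone.

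In 7 of 10 members, UM-UC-3 sh-LNMAT1#1 and the library labelled 5637 sh-NC were both above the other UM-UC-3 libraries, an order chosen after the values were seen, which 30.8% of 12045 genes shared. The exceptions were TRIB3, CHAC1 and SLC7A11.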

How the data were processed

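The mRNA of 6 stable lines was sequenced with a stranded mRNA kit. The authors deposited 1 table of FPKM per gene, and their processing notes name HISAT2 and hg38. The counting program and strand setting are not given in the sources used here. A row broken over 2 lines was left out. Positions are those of the table (GRCh38), and 9 of 10 members match GENCODE 29. DDIT3, on the minus strand, reaches further on its 5′ side there.

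Values were analysed as log2(FPKM + 0.5) for genes whose mean over the libraries compared reached 1 FPKM, since FPKM are not counts. Fold changes on this scale understate those of low genes. Tests used limma 3.58.1 (R 4.3.3, moderated with a mean trend, Benjamini-Hochberg adjustment over all genes, threshold 0.05), with 3 residual degrees of freedom for the lines and for the pooled change. The code was also run on simulated data with independent noise. That setting is simpler than these libraries, so the run does not bear on the calls. Comparisons with 1 library a side are values only, read at 2-fold. Depth was taken from the smallest steps of single-exon genes. Of their values of up to 50 fragments, at least 99.95% were whole fragments within 0.02. Intervals cover counting error only.

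The members and lists were chosen with earlier results of these data known. Named were all members, up to 3 list genes with the largest called differences, and the 3 genes nearest in profile. PIR, GDF15, ADM2 and STC2 are named outside that rule, after their values were seen. Of 106 list genes 106 were found. Alternatives were the scaling, pseudocount, filter, trend, fold, hairpin and libraries left out.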

Additional observations from a re-analysis of the deposited data

Results flagged for a closer look

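The change upon LNMAT1 silencing differed between the lines for 7 of 10 members, tested in limma by a term for the difference in a fit of all 6 libraries by label, added after the levels were seen, with 2 residual degrees of freedom. The share of all genes called lower in 5637 by this test was 8.79%. The differences, as the log2 change in 5637 minus that in UM-UC-3, were −4.78 for DDIT3 (adjusted p = 0.00889), −4.33 for ASNS (adjusted p = 0.0106) and −3.58 for TRIB3 (adjusted p = 0.0146). They were −3.27 for SESN2 (adjusted p = 0.00584), −2.94 for PSAT1 (adjusted p = 0.0119), −2.66 for ATF3 (adjusted p = 0.0102) and −2.03 for CHAC1 (adjusted p = 0.0339). Every value rests on the library labelled 5637 sh-NC, which holds no epithelial marker at 1 FPKM, and on 1 control library per line, so that a difference in knockdown effect and the identity of that library cannot be told apart. The 3 members without a call were ATF4 (−0.51), DDIT4 (−1.17) and SLC7A11 (−0.98).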

How the results depend on the processing

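The 15 medians and 83 of 88 counts of members under the alternatives stayed within the limits set for them, and no member reversed its direction between the lines. With all 6 libraries by label, 0 members were called lower between the lines instead of 8 and 2 genes in all instead of 5467. Leaving out 1 library gave 0 to 1 members called higher, the 1 being DDIT4 without UM-UC-3 sh-LNMAT1#1. TRIB3 and CHAC1 also lost their calls with no filter. In UM-UC-3, 0 members passed 2-fold with both hairpins and 1 passed 1.5-fold, a cutoff not counted over all genes. With sh-LNMAT1#1 taken alone 4 passed 2-fold, where 5.55% of genes were at least 2-fold higher. The pooled calls of members ranged from 0 to 8 with 1 library left out, with 4029 genes called without UM-UC-3 sh-NC. The pooled log2 changes were not called in the full set and 8 changed sign with 1 control left out. With 1 library left out they ranged, lowest without UM-UC-3 sh-NC and highest without the library labelled 5637 sh-NC (the latter also with UM-UC-3 alone), from −2.17 to 0.49 for ATF3 (−0.84 with all), −4.14 to 0.64 for DDIT3 (−1.75), −2.62 to 0.96 for TRIB3 (−0.83), −3.59 to 0.74 for ASNS (−1.42), −1.65 to 0.38 for CHAC1 (−0.64), −3.07 to 0.20 for SESN2 (−1.44), −2.57 to 0.38 for PSAT1 (−1.10) and −0.014 to 1.16 for DDIT4 (0.57). Without a filter 154 genes were called, and with UM-UC-3 alone 1. Between the lines, 2757 genes were lower, and 1467 with a filter of 5 FPKM, 1040 and 1131 without 5637 sh-LNMAT1#1 or sh-LNMAT1#2. Genes called higher numbered 2710, and 1143, 1116 and 1240 there. The log2 changes of ATF3 in 5637 were −2.54 and −2.52 with a pseudocount of 0.1 and −1.87 and −1.85 with 1. The cause was not tested. Replicate numbers pair no samples, as every group holds a single library. A fit with the hairpin as a covariate in the 4 sh-LNMAT1 libraries pairs the lines by hairpin, with 1 residual degree of freedom. It called 8 members lower, against 2532 of 12843 genes lower and 5254 called in all. The few fragments behind ATF3, DDIT3 and CHAC1 in 5637 limit those values, and 1 library per construct limits the hairpin comparisons.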

Other observations

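Of the 16 ER genes, 11 had the order described last (30.8% of all genes did), with UM-UC-3 sh-LNMAT1#1 and the library labelled 5637 sh-NC above the other UM-UC-3 libraries. HSPA5, the ER chaperone BiP, was at 886 and 880.1 FPKM in this pair, and at 262 and 329 FPKM in UM-UC-3 with the control hairpin and with sh-LNMAT1#2. XBP1, the factor spliced upon ER stress, was at 29.5 and 25.4 FPKM against 15.0 and 14.6 FPKM. PPP1R15A was at 110.5 and 134 FPKM against 53.5 and 70.2 FPKM, and NUPR1, a stress-induced chromatin protein, at 4.86 and 3.89 FPKM against 0.586 and 0.725 FPKM. In the 5637 sh-LNMAT1 libraries NUPR1 stood at 0.0593 and 0.00795 FPKM and HSPA5 at 356 and 404 FPKM. These genes were named after their values were seen, the 2 libraries of the pair are those that correlated at 0.985, and no test was made.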
